A study of Homo sapiens with 6 samples.

Results

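The TNF superfamily ligands are a family of trimeric cytokines, most of them made as membrane proteins, that bind receptors of the TNF receptor superfamily on the same or on neighbouring cells. Through adaptor proteins such as the TRAFs these receptors act mainly on NF-κB, on MAP kinases and, for receptors with a death domain, on cell death. Several of the ligand genes are themselves known targets of NF-κB. In myeloma and its marrow niche the family is known for BAFF and APRIL, which keep plasma cells alive. It is also known for BCMA, a receptor of both and a target of myeloma therapy. The 10 ligand genes described here were picked out by their symbols. They are TNF, LTA, LTB, TNFSF4 (OX40L), TNFSF8 (CD30L), TNFSF9 (4-1BBL), TNFSF13B (BAFF), TNFSF14 (LIGHT), TNFSF15 (TL1A) and CD70. All 10 had a row on a primary chromosome among the 63677 genes of the count table.

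RNA-Seq was done on RPMI8226, a long-established line of human myeloma cells of wild-type genotype. One treatment was GST, the glutathione-S-transferase tag alone, at 100 nM for 6 hr. The other was GST-PTR1, which joins that tag to the domain PTR1 of HAPLN1, a link protein of the extracellular matrix, also at 100 nM for 6 hr. Each treatment had 3 biological replicates of this 1 line, with no other cells named in the culture, so that a ligand and its receptor were read in the same population. Library totals were 15202503, 20077280 and 23453473 reads with GST and 22874133, 28837431 and 44688737 reads with GST-PTR1. Values are listed in that order within each treatment. CPM is the number of reads of a gene per 1000000 counted reads, on totals scaled with edgeR's TMM factors, and 3 reads were worth between 0.0761 and 0.18 CPM. All 8 plasma cell markers were detected, SDC1, CD38, JCHAIN and MZB1 among them, with a summed level of 4050 to 4753 CPM with GST and 3948 to 4892 CPM with GST-PTR1. PRDM1, IRF4 and SLAMF7 were higher with GST-PTR1 and SDC1 and XBP1 were lower. Markers of immune and stromal cells that also make these ligands were low. The 6 T cell markers summed to 8.72 to 11.2 CPM with GST and 7.37 to 8.73 CPM with GST-PTR1, nearly all of it CD8A, which was lower with GST-PTR1, and TRAT1, while CD3D, CD3E, CD3G and CD2 had 0 to 2 reads in each library. The 5 NK cell markers summed to at most 0.321 CPM, the 6 monocyte markers to at most 1.32 CPM and the 5 stromal markers to at most 0.522 CPM in any library.

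Of the 10 ligand genes, 7 were higher with GST-PTR1 and none was lower by edgeR's quasi-likelihood test (threshold 0.05 on the p adjusted by Benjamini and Hochberg over 16926 genes). None was lower at an unadjusted p under 0.05 in that test, nor by DESeq2 or limma's voom. At the threshold 9.15% of all genes tested were called higher and 11.4% lower. The 7 were TNFSF9, TNF, LTB, LTA, CD70, TNFSF15 and TNFSF13B, and all 7 passed 2-fold, as did 3.68% of the genes tested. TNFSF9 and TNF passed 16-fold, as did 0.585%. In each of the 7 every GST-PTR1 library lay above every GST library, which was so for 19.2% of the genes tested. TNFSF4 and TNFSF8 did not pass the test, and TNFSF14 was too low to be tested. The fold changes ran over a wide range, from 76.2-fold for TNFSF9 to 2.11-fold for TNFSF13B. In bulk libraries, more RNA in every cell and the same RNA in more of the cells cannot be told apart. For a single gene the exact two-sided permutation test on 3 libraries against 3 cannot go below p = 0.1, and each of the 7 reached that value. edgeR's expression filter let 9 of the 10 through. TNF, LTB, TNFSF4, TNFSF9 and CD70 exceeded its level in all 3 GST libraries, whereas LTA, TNFSF8, TNFSF13B and TNFSF15 passed with the help of the GST-PTR1 libraries. A fit with no expression filter held all 10 ligand genes. It called 7 of them higher, with a median log2 fold change of 2.80 against 0.01 over 31617 genes, of which 8.25% were higher.

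**Figure D1:**
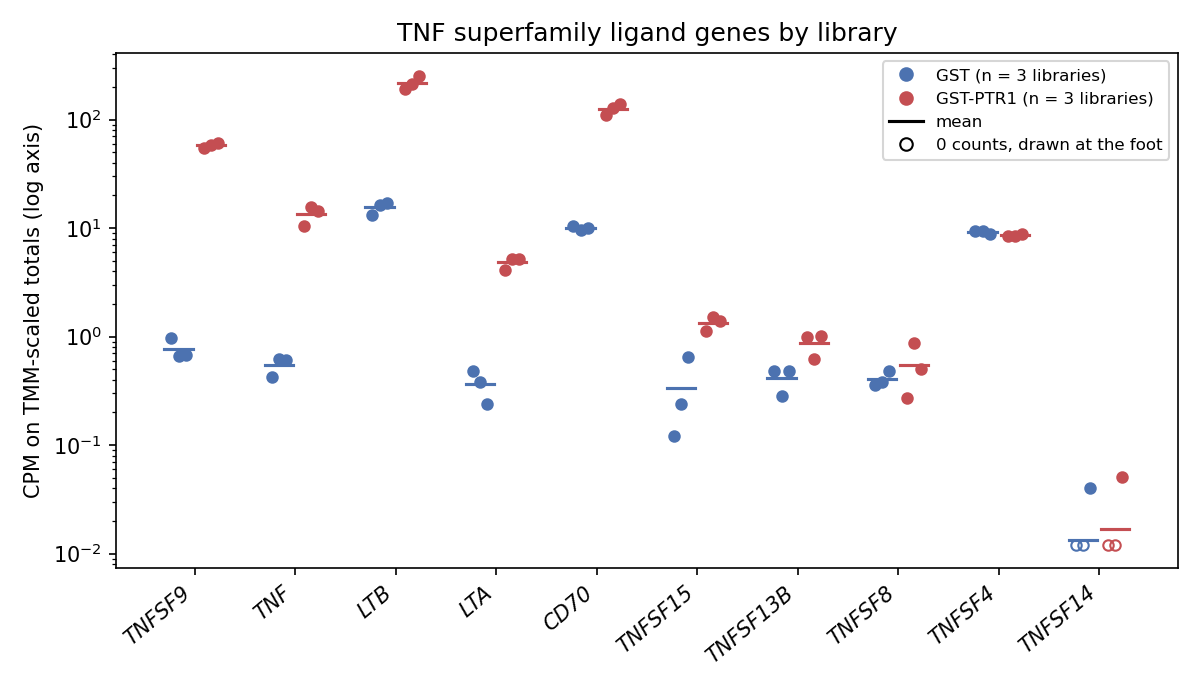
Level of each of the 10 ligand genes in each library, as CPM on a log axis, with GST in blue and GST-PTR1 in red (3 libraries each) and a line at the mean. Red and blue points are apart for the 7 genes at the left and overlap for TNFSF8 and TNFSF4, and TNFSF14 has at most 2 reads in a library.

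TNF, LTA and LTB sit side by side within the major histocompatibility complex, and their promoters are shown because all 3 genes rose by more than 13-fold. The promoter of TNFSF9 is shown for the largest change, and that of TNFSF4 for a gene that was read well and did not pass the test. Each sequence holds the 250 bases before a start site in RefSeq on GRCh38.p14, 5′ to 3′ on the strand of the gene, and RefSeq promoters were found for 8 of the 10 ligand genes. Capitals mark matches, on either strand, to a loose form of the NF-κB motif, the letters GGG and CC with any 5 bases between them. The windows are TNF at chr6:31575315-31575564 (plus strand), LTA at chr6:31572039-31572288 (plus strand), LTB at chr6:31582426-31582675 (minus strand), TNFSF9 at chr19:6530776-6531025 (plus strand) and TNFSF4 at chr1:173205533-173205782 (minus strand).
TNF: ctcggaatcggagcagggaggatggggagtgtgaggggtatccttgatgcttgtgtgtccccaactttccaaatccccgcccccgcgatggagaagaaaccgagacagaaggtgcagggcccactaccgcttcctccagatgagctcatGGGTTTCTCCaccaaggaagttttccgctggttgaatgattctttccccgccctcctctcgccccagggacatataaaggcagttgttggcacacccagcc
LTA: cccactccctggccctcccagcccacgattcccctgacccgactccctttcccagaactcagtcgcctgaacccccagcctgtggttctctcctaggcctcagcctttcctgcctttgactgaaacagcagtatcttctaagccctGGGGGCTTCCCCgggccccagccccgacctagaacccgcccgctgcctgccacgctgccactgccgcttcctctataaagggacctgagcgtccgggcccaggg
LTB: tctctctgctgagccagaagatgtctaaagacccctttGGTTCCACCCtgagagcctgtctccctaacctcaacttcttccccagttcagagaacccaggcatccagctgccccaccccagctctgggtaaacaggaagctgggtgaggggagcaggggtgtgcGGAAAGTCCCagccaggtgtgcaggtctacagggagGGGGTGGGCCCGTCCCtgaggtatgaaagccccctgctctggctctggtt
TNFSF9: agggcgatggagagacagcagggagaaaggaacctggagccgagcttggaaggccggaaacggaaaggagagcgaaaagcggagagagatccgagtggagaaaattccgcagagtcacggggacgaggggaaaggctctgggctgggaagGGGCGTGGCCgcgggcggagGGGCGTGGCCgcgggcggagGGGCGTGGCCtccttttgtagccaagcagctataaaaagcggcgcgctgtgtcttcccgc
TNFSF4: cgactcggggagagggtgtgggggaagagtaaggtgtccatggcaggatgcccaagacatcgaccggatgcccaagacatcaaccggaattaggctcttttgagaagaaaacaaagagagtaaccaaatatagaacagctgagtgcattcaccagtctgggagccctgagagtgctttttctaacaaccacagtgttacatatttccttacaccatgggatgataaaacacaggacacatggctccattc

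This loose motif is common, held by 54.4% of the 35116 promoters of that length. The TNF window had 1 match, GGGTTTCTCC, and the TNFSF9 window had GGGCGTGGCC 3 times, at 100, 80 and 60 bases before the start. LTA has another RefSeq start, whose window held 1 match and is not shown. The LTA window shown had a run of overlapping matches and the LTB window 7 matches, some of them overlapping. A tighter form, GGG and TTCC with any 3 bases between them, found in 5.67% of promoters, occurred in LTA as GGGGGCTTCC and in LTB as GGGACTTTCC on the opposite strand. Neither TNF nor TNFSF9 held that tighter form in this window. The letters TATAAA, present in 10.7% of promoters on either strand, lay in the TNF, LTA and TNFSF9 windows, with their first base 29, 31 and 30 bases before the start. No match to the loose motif was present in the windows of TNFSF4, TNFSF13B and TNFSF15, of which the latter 2 were called higher. The window of TNFSF14, which was near 0 in both treatments, held 6 matches. The AP-1 motif TGANTCA, in 6.57% of promoters, was found for TNFSF14 and TNFSF15. These are matches of letters only, and no binding was measured.

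TNFSF9 showed the largest change of the family. TNFSF9 (ENSG00000125657, chromosome 19 from 6531010 to 6535931) encodes 4-1BBL, which costimulates T and NK cells through 4-1BB. It had 0.962, 0.663 and 0.682 CPM in the GST libraries and 54.8, 58.1 and 60.4 CPM in the GST-PTR1 libraries, from 16, 14 and 17 reads with GST and 1221, 1585 and 2381 reads with GST-PTR1. The GST-PTR1 libraries were close to each other and far above all GST libraries. The mean level rose from 0.769 ± 0.167 to 57.8 ± 2.82 CPM (SD, n = 3 each). This was a log2 fold change of 6.25 (SE 0.17), or 76.2-fold, with an adjusted p of 2.25e-09 in edgeR's quasi-likelihood test, and it ranked 32 of 16926 genes by fold change. Its log2 fold change stayed between 6.06 and 6.45 under 16 alternatives.

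TNF (ENSG00000232810, chromosome 6 from 31543344 to 31546113) encodes the founding member of the family, an inflammatory cytokine that acts through TNFR1 and TNFR2. Its reads were few with GST. It had 0.421, 0.616 and 0.602 CPM in the GST libraries and 10.5, 15.6 and 14.2 CPM in the GST-PTR1 libraries, from 7, 13 and 15 reads with GST and 234, 426 and 560 reads with GST-PTR1. The lowest GST-PTR1 library was above the highest GST library by a wide margin. The mean level rose from 0.546 ± 0.109 to 13.4 ± 2.64 CPM (SD, n = 3 each), which is a log2 fold change of 4.59 (SE 0.24), or 24.0-fold, with an adjusted p of 3.00e-07 in edgeR's quasi-likelihood test. LTA (ENSG00000226979, chromosome 6 from 31539831 to 31542101) encodes lymphotoxin alpha, which is secreted as a trimer that binds the TNF receptors and also joins lymphotoxin beta on the cell surface. It had 0.481, 0.379 and 0.241 CPM in the GST libraries and 4.09, 5.20 and 5.18 CPM in the GST-PTR1 libraries. The reads behind these values were 8, 8 and 6 and 91, 142 and 204, so that the GST level rests on 22 reads in all. The mean level rose from 0.367 ± 0.121 to 4.82 ± 0.638 CPM (SD, n = 3 each), which is a log2 fold change of 3.76 (SE 0.28), with an adjusted p of 3.60e-06 in edgeR's quasi-likelihood test. The ratio of the summed reads, on scaled totals, was 13.99 with a 95% counting interval of 9.12 to 22.6.

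LTB (ENSG00000227507, chromosome 6 from 31548302 to 31550299) encodes the membrane anchor of the lymphotoxin heterotrimer that binds LTBR. LTB was already made with GST. It had 13.2, 16.3 and 17.0 CPM in the GST libraries and 192, 213 and 249.8 CPM in the GST-PTR1 libraries. The treatments were far apart, with the spread within each small beside the gap. The mean level rose from 15.5 ± 2.01 to 218 ± 29.5 CPM (SD, n = 3 each), which is a log2 fold change of 3.81 (SE 0.15), or 14.01-fold, with an adjusted p of 2.86e-08 in edgeR's quasi-likelihood test. CD70 (ENSG00000125726, chromosome 19 from 6583194 to 6604114) encodes the ligand of CD27, a costimulatory receptor of T and memory B cells. It had 10.4, 9.57 and 9.99 CPM in the GST libraries and 110.5, 128 and 138 CPM in the GST-PTR1 libraries. The 3 GST libraries lay within 1 CPM of each other, and the GST-PTR1 libraries spread more widely without reaching them. The mean level rose from 9.99 ± 0.413 to 125 ± 13.9 CPM (SD, n = 3 each), which is a log2 fold change of 3.65 (SE 0.12), or 12.6-fold, with an adjusted p of 1.37e-08 in edgeR's quasi-likelihood test. Under the alternatives the log2 fold change stayed between 3.61 and 3.89 for LTB and between 3.45 and 3.76 for CD70.

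TNFSF15 and TNFSF13B were called higher with smaller fold changes, and both had few reads with GST. TNFSF15 (ENSG00000181634, chromosome 9 from 117546915 to 117568406) encodes TL1A, which acts through DR3 on lymphocytes. It had 0.12, 0.237 and 0.642 CPM in the GST libraries and 1.12, 1.502 and 1.40 CPM in the GST-PTR1 libraries, from 2, 5 and 16 reads with GST and 25, 41 and 55 reads with GST-PTR1. Relative to their mean, the GST libraries differed more among themselves than those of TNFSF9, TNF, LTA, LTB or CD70. The largest GST library was the highest of them. The log2 fold change was 1.89 (SE 0.42), or 3.71-fold, with an adjusted p of 0.0090 in edgeR's quasi-likelihood test, and without the largest GST library it was 2.84. A test against a fold of 2 did not pass for this gene, with an adjusted p of 0.258 in edgeR. TNFSF13B (ENSG00000102524, chromosome 13 from 108903588 to 108960832) encodes BAFF, a survival factor of B and plasma cells. It had 0.481, 0.284 and 0.481 CPM in the GST libraries and 0.988, 0.623 and 1.02 CPM in the GST-PTR1 libraries, from 8, 6 and 12 reads with GST and 22, 17 and 40 reads with GST-PTR1. The treatments did not overlap, but the gap between them was small. The log2 fold change was 1.08 (SE 0.35), with an adjusted p of 0.0497 in edgeR's quasi-likelihood test, just under the threshold. The call was lost in 11 of 14 alternatives, and the adjusted p over all 14 ran from 0.0277 to 1.

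TNFSF4, TNFSF8 and TNFSF14 were not called. TNFSF4 (ENSG00000117586, chromosome 1 from 173152873 to 173176452) encodes OX40L, a costimulator of T cells. It had 9.44, 9.43 and 8.75 CPM in the GST libraries and 8.53, 8.54 and 8.81 CPM in the GST-PTR1 libraries. The values of the treatments overlapped. Its log2 fold change was -0.09 (SE 0.13), with a 95% interval of -0.37 to 0.19 and an adjusted p of 0.642 in edgeR's quasi-likelihood test, and the interval leaves out any change as large as 2-fold. TNFSF8 (ENSG00000106952, chromosome 9 from 117656003 to 117692697) encodes CD30L. It had 0.361, 0.379 and 0.481 CPM in the GST libraries and 0.269, 0.879 and 0.508 CPM in the GST-PTR1 libraries, from 6, 8 and 12 reads with GST and 6, 24 and 20 reads with GST-PTR1. The treatments overlapped, and the GST-PTR1 libraries held both the lowest and the highest value. The log2 fold change was 0.43 (SE 0.43), with a 95% interval of -0.52 to 1.39 and an adjusted p of 0.502 in edgeR's quasi-likelihood test, and the interval includes both no change and a rise of 2-fold. TNFSF14 (ENSG00000125735, chromosome 19 from 6663148 to 6670599) encodes LIGHT, a ligand of HVEM and LTBR. It had 1 read in the 3 GST libraries together and 2 in the 3 GST-PTR1 libraries, and a difference was not detectable.

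**Figure D2:**
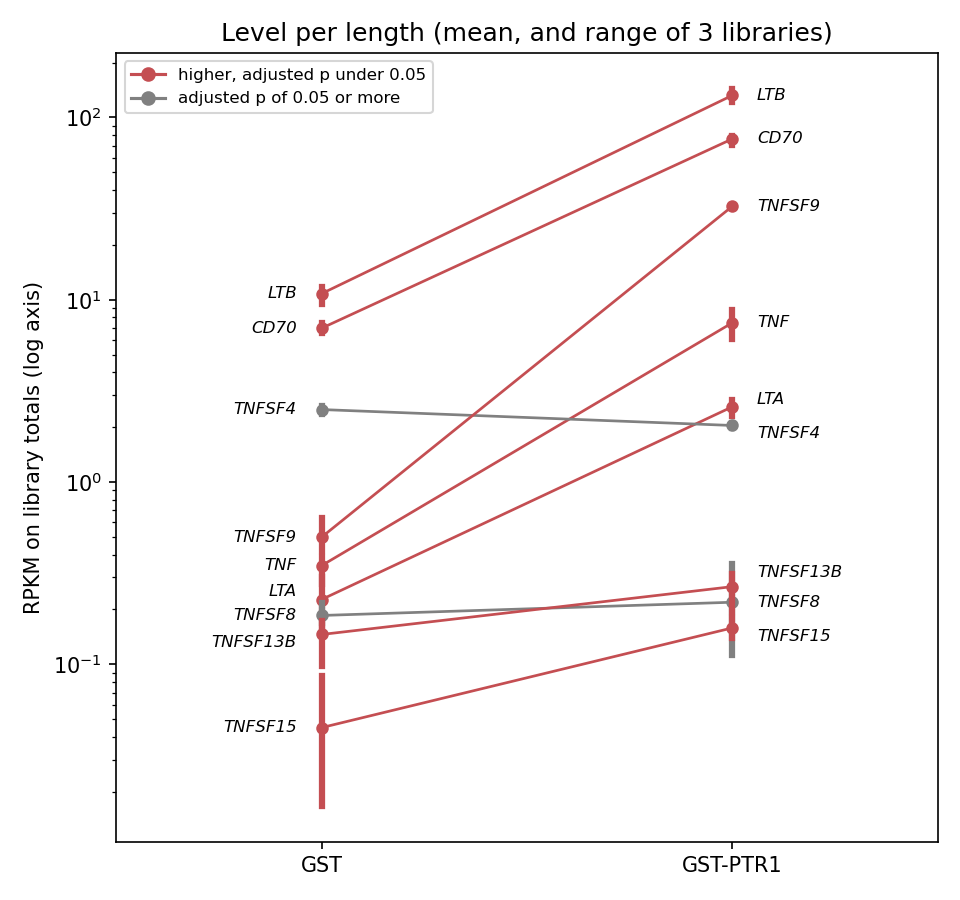
Mean RPKM on library totals of 9 ligand genes with GST and with GST-PTR1, on a log axis (TNFSF14 is left out). Bars run from the lowest to the highest of 3 libraries. Red lines are genes called higher, grey lines are TNFSF4 and TNFSF8. TNFSF9, TNF and LTA cross TNFSF4, and LTB and CD70 are at the top in both treatments.

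To compare genes with each other, levels were taken per length as RPKM, reads per 1000 bases of exon and 1000000 counted reads. Unlike the CPM values, these were computed on library totals without the TMM factors. With GST the order was LTB at 10.8 RPKM, CD70 at 6.98, TNFSF4 at 2.50, TNFSF9 at 0.498, TNF at 0.348, LTA at 0.227, TNFSF8 at 0.185, TNFSF13B at 0.146 and TNFSF15 at 0.0449. LTB and CD70 together with TNFSF4 thus gave most of the RNA of the 10 ligand genes per length. Neighbours in this order were apart in all libraries, except TNF and LTA, LTA and TNFSF8, and TNFSF8 and TNFSF13B, whose ranges overlapped. With GST-PTR1 the order was LTB at 132 RPKM, CD70 at 76.2, TNFSF9 at 32.5, TNF at 7.46, LTA at 2.58, TNFSF4 at 2.04, TNFSF13B at 0.267, TNFSF8 at 0.219 and TNFSF15 at 0.158. TNFSF8 could not be separated from TNFSF13B or from TNFSF15. TNFSF4 was not called by the test, and on TMM-scaled totals it had 2.33 RPKM with GST and 2.19 with GST-PTR1. The share of the summed RPKM of the 10 genes moved little for LTB, 49.7% with GST and 52.1% with GST-PTR1, and for CD70, 32.1% and 30.1%. TNFSF9 went from 2.29% to 12.8%, and TNFSF4 from 11.5% to 0.806%. The summed RPKM of the 10 genes was 21.0, 21.6 and 22.5 with GST and 235, 258 and 268 with GST-PTR1. These sums leave out the other ligands of the superfamily, of which TNFSF10 had 8.10 RPKM with GST and 27.4 with GST-PTR1.

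Of the other 8 ligands of the superfamily 5 were tested. TNFSF10 and TNFSF18 were higher with GST-PTR1, EDA was lower, and TNFSF11 and TNFSF13 were not called. Among all genes tested 9.15% were higher and 11.4% lower. TNFSF10 (ENSG00000121858, chromosome 3 from 172223298 to 172241297), the death ligand TRAIL, had 21.8, 25.4 and 31.9 CPM in the GST libraries and 99.1, 95.5 and 112 CPM in the GST-PTR1 libraries. All GST-PTR1 libraries were above all GST libraries, and the log2 fold change was 1.95 (SE 0.14) with an adjusted p of 3.62e-06 in edgeR's quasi-likelihood test. TNFSF18 (ENSG00000120337, chromosome 1 from 173009100 to 173020103), the ligand of GITR, had 0.0601, 0.284 and 0.12 CPM in the GST libraries and 2.16, 3.48 and 4.09 CPM in the GST-PTR1 libraries, from 1, 6 and 3 reads with GST and 48, 95 and 161 reads with GST-PTR1. It lies 132770 bases from TNFSF4, which did not pass. No GST library exceeded the level of the expression filter for TNFSF18, so it was tested only through the GST-PTR1 libraries. Its log2 fold change was 4.32 (SE 0.43) with an adjusted p of 4.55e-05 in edgeR's quasi-likelihood test. In the fit with no expression filter the log2 fold change was 4.35. The ratio of summed reads was 21.4 with a 95% counting interval of 11.5 to 45.1. EDA, which encodes ectodysplasin A of skin appendage development, had 4.21, 3.55 and 3.21 CPM in the GST libraries and 1.17, 1.14 and 1.35 CPM in the GST-PTR1 libraries. Its treatments did not overlap, and the log2 fold change was -1.57 (SE 0.21) with an adjusted p of 0.000396 in edgeR's quasi-likelihood test. TNFSF11, which encodes RANKL, the ligand that drives osteoclasts, had 3.49, 6.16 and 5.02 CPM in the GST libraries and 3.86, 6.82 and 5.84 CPM in the GST-PTR1 libraries. These values overlapped, and the adjusted p in edgeR was 0.657. TNFSF13, which encodes APRIL, had 4.45, 3.46 and 3.41 CPM in the GST libraries and 3.37, 2.75 and 3.43 CPM in the GST-PTR1 libraries and an adjusted p of 0.405 in edgeR. Its reads are incomplete, since 58.4% of its exon bases are shared with TNFSF12 and a readthrough gene. TNFSF12 had 0 reads with 57.9% of its exon bases shared, so its level is not known from these counts, and FASLG and CD40LG had 1 read each over the 6 libraries.

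**Figure D3:**
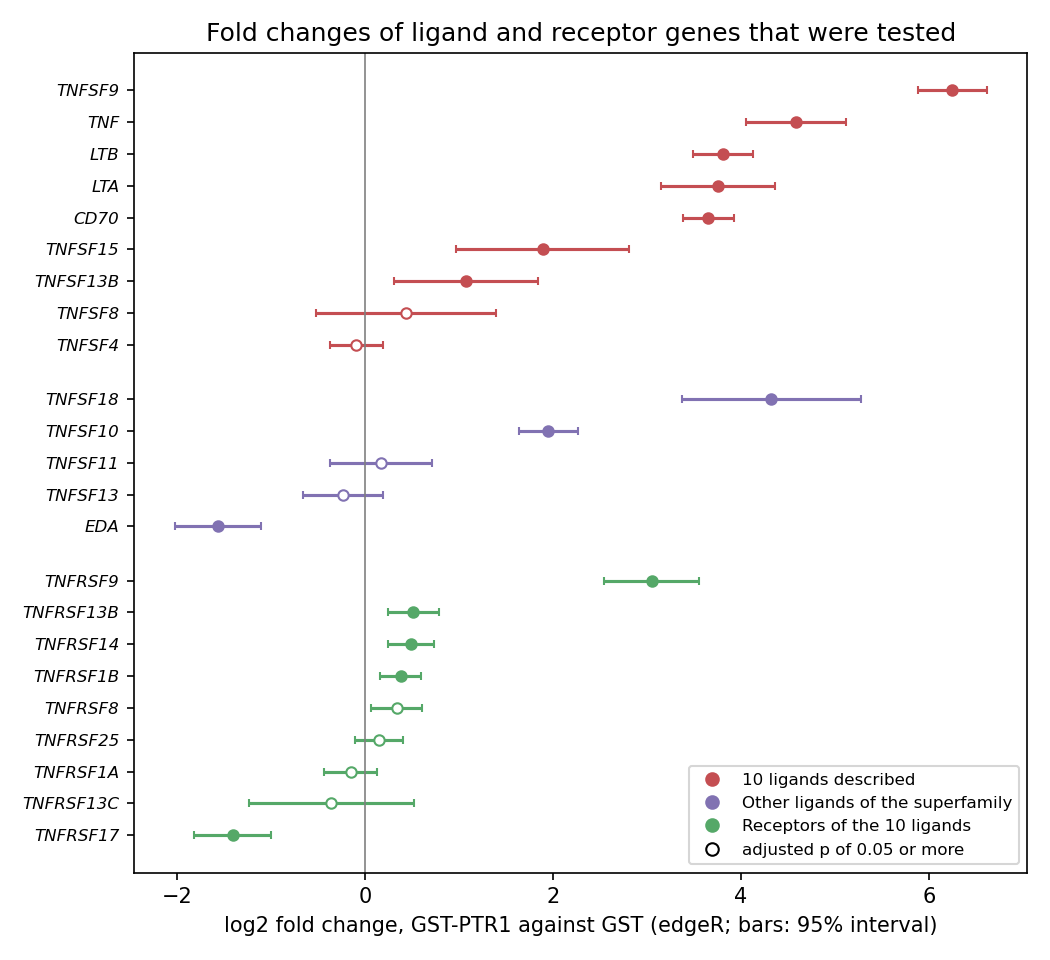
Log2 fold change of each tested ligand and receptor gene, GST-PTR1 against GST, with the 95% interval from edgeR's fit (3 libraries a treatment). Filled points have an adjusted p under 0.05. Of the ligands described, 7 are filled and above 1, while the only filled receptor point above 1 is TNFRSF9.

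Of 13 genes for receptors of these ligands 9 were tested, of which 4 were higher and 1 was lower. The shares over all genes tested were 9.15% higher and 11.4% lower. Among the 9 tested, TNFRSF9 was the receptor gene called higher by at least 2-fold. It is the gene of 4-1BB, the receptor of the TNFSF9 product. It had 0.541, 0.711 and 0.562 CPM in the GST libraries and 4.49, 4.98 and 5.63 CPM in the GST-PTR1 libraries, from 9, 15 and 14 reads with GST and 100, 136 and 222 reads with GST-PTR1. The treatments did not overlap. Its log2 fold change was 3.05 (SE 0.23) with an adjusted p of 4.08e-06 in edgeR's quasi-likelihood test. Of the receptors of TNF and LTA, TNFRSF1B (TNFR2) had 149, 145 and 155 CPM in the GST libraries and 199, 207 and 179 CPM in the GST-PTR1 libraries, a log2 fold change of 0.38 (SE 0.10) with an adjusted p of 0.0218 in edgeR, and this call was lost in 8 of 16 alternatives. TNFRSF1A (TNFR1) had 33.4, 26.8 and 30.4 CPM in the GST libraries and 30.7, 25.4 and 25.4 CPM in the GST-PTR1 libraries, and its values overlapped, with an adjusted p of 0.418 in edgeR. LTBR, the receptor of the lymphotoxin heterotrimer and of LIGHT, had 2 reads in the GST libraries together and 2 in the GST-PTR1 libraries. CD27, the receptor of CD70, had 1 read over the 6 libraries. LTB and CD70 were thus the most abundant of the 10 ligand genes per length in cells with next to no RNA of the receptors named here.

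The BAFF receptors moved in different directions. TNFRSF17 (BCMA), a survival receptor of plasma cells, had 32.9, 25.9 and 27.0 CPM in the GST libraries and 10.1, 8.10 and 13.8 CPM in the GST-PTR1 libraries. Every GST-PTR1 library was below every GST library. BCMA RNA had a log2 fold change of -1.41 (SE 0.19) with an adjusted p of 0.000374 in edgeR's quasi-likelihood test, and the call was lost only in the test against a fold of 2. TNFRSF13B (TACI) had 41.5, 33.0 and 35.9 CPM in the GST libraries and 58.4, 50.8 and 48.1 CPM in the GST-PTR1 libraries, a log2 fold change of 0.51 (SE 0.12) with an adjusted p of 0.0142 in edgeR, and 20.6% of its exon bases are shared with another gene. TNFRSF13C (BAFF receptor) had 0.781, 0.474 and 0.522 CPM in the GST libraries and 0.404, 0.257 and 0.634 CPM in the GST-PTR1 libraries. Its values overlapped, with an adjusted p of 0.548 in edgeR. TNFRSF14 (HVEM), a receptor of LIGHT, had 38.9, 31.7 and 38.0 CPM in the GST libraries and 52.8, 50.2 and 49.5 CPM in the GST-PTR1 libraries, a log2 fold change of 0.49 (SE 0.11) with an adjusted p of 0.0107 in edgeR. The calls of TNFRSF1B, TNFRSF13B and TNFRSF14 were lost when library totals replaced the TMM factors. TNFRSF8 (CD30) had 16.7, 14.8 and 17.8 CPM in the GST libraries and 22.6, 19.8 and 20.1 CPM in the GST-PTR1 libraries and did not pass, with an adjusted p of 0.0757 in edgeR, although its treatments did not overlap. TNFRSF25 (DR3), the receptor of TL1A, had 33.5, 27.7 and 34.1 CPM in the GST libraries and 36.2, 35.8 and 34.0 CPM in the GST-PTR1 libraries and an adjusted p of 0.366 in edgeR. TNFRSF4 (OX40) was under the filter, at 1, 2 and 3 reads with GST and 11, 8 and 18 reads with GST-PTR1, and TNFRSF6B had 0 reads with all of its exon bases shared with RTEL1.

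Of 20 genes that carry the signal from these receptors into the cell or limit it, 19 were tested. IKBKG was not, since its identifier lies on a patch sequence with 0 reads. Of the 19, 11 were higher, 8 of them by at least 2-fold, and 1 was lower. Over all genes tested 9.15% were higher, 3.68% were higher by at least 2-fold, and 11.4% were lower. The 3 of smallest adjusted p were BIRC3, TNFAIP3 and RELB. BIRC3, a ubiquitin ligase of the TNF receptor complex, had a log2 fold change of 3.92 (SE 0.12) with an adjusted p of 7.82e-09 in edgeR's quasi-likelihood test. TNFAIP3 (A20), which edits ubiquitin and limits NF-κB, had 2.73 (SE 0.12) with 7.46e-08, and RELB, the NF-κB subunit of the alternative pathway, had 2.28 (SE 0.11) with 2.15e-07 in the same test. TRAF5, an adaptor of several of the receptors, was the gene that was lower, with a log2 fold change of -1.25 (SE 0.13) and an adjusted p of 6.37e-05 in edgeR. Of 6 enzymes and cofactors that process ligands, 1 was higher and 5 were not called. The 1 was SPPL2A, an intramembrane protease that cuts the TNF stub, with 55.2, 63.4 and 58.0 CPM in the GST libraries and 67.4, 82.6 and 94.7 CPM in the GST-PTR1 libraries and an adjusted p of 0.026 in edgeR. ADAM17, the sheddase of TNF, had 42.9, 52.1 and 48.7 CPM in the GST libraries and 53.7, 59.9 and 55.5 CPM in the GST-PTR1 libraries and an adjusted p of 0.151 in edgeR.

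Several of the ligand genes lie in clusters on GRCh37. Most of the tested genes beside them were not called, as held for the genes tested as a whole. Of all genes tested, 9.15% were higher and 11.4% lower. On chromosome 6, LTA and TNF are 1243 bases apart and TNF and LTB 2189 bases. The nearest tested genes outside this group, NFKBIL1 and AIF1, had log2 fold changes of 0.25 and 0.31 and adjusted p of 0.244 and 0.443 in edgeR's quasi-likelihood test. Within 150 kb of the group 18 other genes were tested, 1 of them higher and 2 lower, with log2 fold changes from -0.95 to 0.47. None of these 18 genes changed by 2-fold. On chromosome 19, TNFSF9, CD70 and TNFSF14 follow each other, with gaps of 47263 and 59034 bases. Within 150 kb of them 12 other genes were tested, and 4 were higher and 1 lower. The 4 were C3, TRIP10, SH2D3A and VAV1, with log2 fold changes of 4.10, 1.65, 1.13 and 1.69, and C3, which encodes complement component 3, lies 7116 bases from TNFSF14. TNFSF14 itself, between CD70 and C3, stayed at 0 to 2 reads in each library. TNFSF15 and TNFSF8 are 87597 bases apart on chromosome 9, and the first rose and the second did not pass. Over all 10 ligand genes, 12 distinct genes were the nearest tested neighbours, of which 1 was higher, 3 were lower and 8 were not called, with a median log2 fold change of 0.19.

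**Figure D4:**
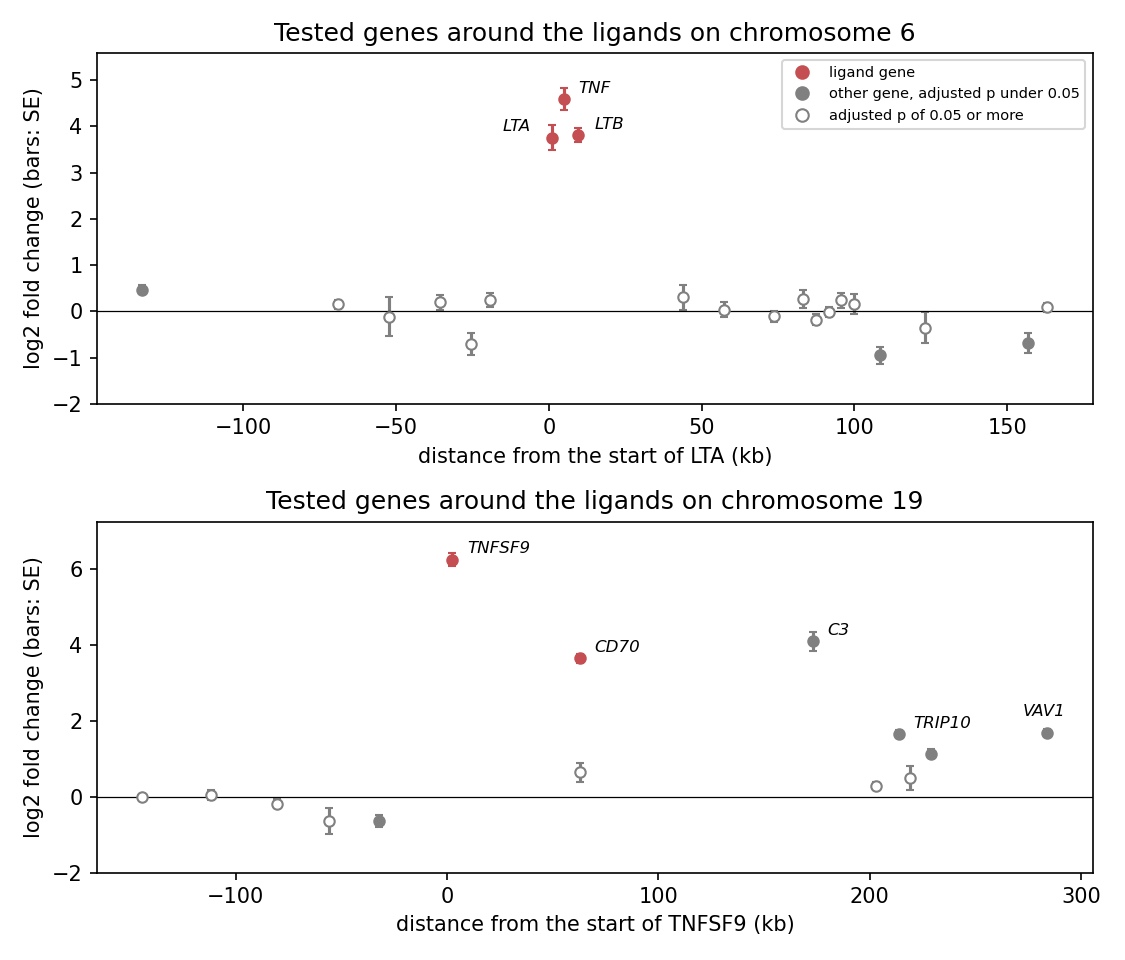
Log2 fold change, with SE bars, of every tested gene within 150 kb of the ligand genes on chromosome 6 (top) and chromosome 19 (bottom), placed by the distance of its middle from the start of LTA or TNFSF9. In the top panel the 3 red points stand above 3.5 and all grey points lie between -0.95 and 0.47, while in the bottom panel C3 reaches 4.10.

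The 3′ UTRs of the ligand genes differ in the AU-rich letters known from unstable cytokine mRNAs. TTATTTATT occurred 5 times in the longest annotated 3′ UTR of TNF and once in that of LTA, and in none of the other 8. Of 19546 genes, 7.98% held it at least 1 time. The sites are shown as windows of 30 bases with the ATTTA letters in capitals, from GENCODE release 29 on GRCh38, plus strand, TNF chr6:31577999-31578028 and LTA chr6:31574057-31574086.
TNF: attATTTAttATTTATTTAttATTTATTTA
LTA: tgaaggcaaaaaaattaaattATTTATTTA

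The TNF 3′ UTR held 9 copies of ATTTA in 799 bases, or 11.3 per kb, against a median of 1.48 per kb over all genes. LTB, which rose by about as much as LTA, held none in the 609 bases of its longest annotated 3′ UTR, that of transcript ENST00000446745. Shorter annotated 3′ UTRs were not searched, and which transcripts the cells used was not determined. TNFSF13B had 7.76 per kb, CD70 5.53 from only 1 copy in 181 bases, LTA 4.75 and TNFSF9 4.64. TNFSF4 had 3.24 per kb, TNFSF15 2.58, TNFSF8 0.92 and TNFSF14 0.817. The order of these densities is not that of the fold changes, and RNA stability was not measured.

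For each of the 3 genes with the largest changes, the closest patterns across the 6 libraries were sought among 13360 genes, as the smallest Euclidean distance of log2 CPM centred on the GST mean. TNFSF9 was closest to LINC02605, a long non-coding RNA, at a distance of 0.485 and to LIF, a cytokine of the IL-6 family, at 0.608. TNF was closest to ITGB8, an integrin subunit, at 0.402 and to IL32, a cytokine, at 0.439. LTB was closest to GBP1, a guanylate-binding protein, at 0.159 and to PTGER4, a receptor of prostaglandin E2, at 0.267. Such distances mainly match the size of the change, since the 6 libraries fall into only 2 treatments.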

How the data were processed

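RNA was extracted from RPMI8226 cells and stranded mRNA libraries were sequenced, 3 per treatment. The authors deposited whole-number counts per gene, made with featureCounts 1.5.0-p1 on the exons of Ensembl release 75 (GRCh37) with reads counted singly on the reverse strand, and left out reads with several places or several genes. The submitters' processing notes also name FastQC, Subread and limma with hg19. Overlapping genes are therefore undercounted. The 5904 genes off the primary chromosomes hold 0 counts.

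From these counts, CPM on TMM-scaled totals and RPKM on library totals were computed. All 6 libraries were fitted with edgeR 4.0.16 in R 4.3.3 (TMM, filterByExpr, glmQLFit, glmQLFTest; Benjamini-Hochberg over 16926 genes, adjusted p under 0.05). Exact permutation tests used SciPy 1.17.1, and tables and figures pandas 2.3.3 and matplotlib 3.10.9 under Python 3.11.15. Counting intervals are exact at 95% and cover counting error only. A treatment whose libraries all held 3 counts or fewer was taken to be at the limit of detection. The smallest chi-square per gene between libraries of a treatment was 7.66, so all were kept as separate samples. The numbers in the column names could not be matched, as a set, to the replicate numbers of the samples. The same number occurs in both treatments for 4 libraries, with correlations of deviations of -0.03 and 0.25. Libraries of different numbers had correlations from -0.47 to 0.37. This check cannot show whether the libraries were paired, and no pairing was used in the main fit. In 3 simulated data sets of 16695 to 16711 genes, edgeR recovered at least 99.5% of 200 genes changed by a log2 fold of 1.5. At most 5.21% of its calls were false. The simulations gave all genes the same dispersion and changed only genes above a minimum mean level. These rates therefore do not cover TNFSF8, TNFSF13B, TNFSF14 and TNFSF15, which lie under that level.

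Alternatives were DESeq2 size factors or library totals, DESeq2 1.42.0 or limma 3.58.1 voom, no filter or at least 10 counts in every library, a test against 2-fold, thinning to the smallest total, leaving out each library, and a replicate block. A fit without the block on the same libraries was added after seeing the data. All ligand and receptor genes of the lists are named, with the 3 signalling genes of smallest adjusted p, the nearest tested neighbours and the 2 closest patterns of 3 ligand genes. ADAM17, TRAF5, SPPL2A, the locus genes and the motif searches were chosen after values were seen. The members and lists were chosen with earlier results of these data known.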

Additional observations from a re-analysis of the deposited data

How the results depend on the processing

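Of the 10 ligand genes, 6 or 7 were higher under 14 of the 16 alternatives and 5 in the test against 2-fold, and none was lower under any of the 16. With at least 10 counts in every library only 4 of them were tested, of which 3 were higher, all by at least 2-fold. That filter removes genes that are low with GST, and under it 1 of the other ligands was higher. With 1 library left out, 6 to 7 ligand genes were higher and 6 to 7 passed 2-fold. TNFSF13B lost its call without any library other than the GST-PTR1 library of 28837431 counts, and its log2 fold change then ran from 0.87 to 1.23. TNFSF15 kept its call without each library, from 1.57 to 2.84. The log2 fold change of TNFSF8 ran from -0.0040 without that same GST-PTR1 library to 0.70 without the smallest one.

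Receptors called higher numbered 5 of 12 with no expression filter, 1 with library totals and 1 in the test against 2-fold. With a library left out they numbered between 2 and 4, the 2 without the largest GST library. TNFRSF1B lost its call when any 1 of 4 libraries was left out, the GST libraries of 20077280 and 23453473 counts and the GST-PTR1 libraries of 22874133 and 28837431. Signalling genes called higher numbered 5 in the test against 2-fold. With library totals the median over all genes moved by -0.20 on the log2 scale, higher calls over all genes fell from 44.4% to 19.7% of calls, and TNFSF11 and TNFRSF25 took log2 fold changes of -0.029 and -0.043. TNFSF11 ran from -0.0096 without the smallest GST library to 0.37 without the GST library of 20077280 counts. The cause of these changes was not tested. In a fit of the 4 libraries with shared column numbers, 6 ligand genes were higher with the replicate block and 6 without it. The column numbers could not be matched to the replicate numbers of the samples, so whether libraries of the same number were paired is not known. Depth limits TNFSF8, TNFSF13B, TNFSF14 and TNFSF15, which have few reads.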
